A study of Mus musculus with 9 samples.

Results

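The 10 myotubularin-related genes examined here were Mtmr1, Mtmr2, Mtmr3, Mtmr4, Mtmr6, Mtmr7, Mtmr9, Mtmr10, Mtmr12, and Mtmr14. They were taken by gene symbol, as the relatives of the Chr 8 candidate Mtmr7, from the 54532 genes of a cortex RNA sequencing table, and each symbol matched 1 gene. The study sought genes on mouse Chr 8 that modify infarct volume after arterial occlusion, and compared transcript levels in brain cortex among 3 inbred strains. Each strain was represented by 3 male mice of 8 to 12 weeks, and no surgery or agent is recorded for them. B6 mice were C57BL6/J, the classical strain from which the reference genome was made. C3H mice were C3H/HeJ, another classical strain, and WSB mice were WSB/EiJ, a strain derived from wild mice. The mice of each inbred strain share 1 genotype, and the strains differ from each other across the genome.

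Myotubularins are lipid phosphatases that remove the phosphate at position D3 of the inositol ring from phosphatidylinositol 3-phosphate, PI3P, and from phosphatidylinositol 3,5-bisphosphate, PI(3,5)P2. These lipids mark endosomes, lysosomes, and autophagosomes, and proteins that bind them direct membrane traffic and autophagy. Many family members have lost the catalytic cysteine and act as partners that bind, stabilise, or localise an active member. In the nervous system the family is known for Mtmr2 and Sbf2, whose loss causes demyelinating Charcot-Marie-Tooth neuropathy.

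The active site of these enzymes is a loop that starts with the catalytic cysteine and ends with an arginine 6 codons later. The codons at both places divided the 10 genes into 7 with the pair and 3 without it, a split that organises the results below. The reading frame of 6 genes around that loop is printed 5′ to 3′ in the direction of the gene, from GENCODE M21 transcripts on GRCm38, with the codons at the cysteine and arginine places in capitals. Mtmr7, chr8:40562630-40562668 on the minus strand, in coding exon sequence (exon 9 of 14), comes first because it is the gene whose level differed among strains. Its closest relative Mtmr6 lies at chr14:60293411-60293449 on the plus strand (exon 10 of 15), and Mtmr14, the most distant active member, at chr6:113265984-113266022 on the plus strand (exon 11 of 19). The 3 genes without the pair follow, Mtmr9 at chr14:63529812-63529850 on the minus strand (exon 7 of 10), Mtmr12 at chr15:12261902-12263753 on the plus strand, and Mtmr10 at chr7:64321224-64326680 on the plus strand. In Mtmr12 and Mtmr10 the stretch is split by an intron between exons 12 and 13, which the printed sequence leaves out.
Mtmr7: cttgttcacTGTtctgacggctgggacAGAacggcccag
Mtmr6: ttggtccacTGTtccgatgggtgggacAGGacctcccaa
Mtmr14: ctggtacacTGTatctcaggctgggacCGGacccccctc
Mtmr9: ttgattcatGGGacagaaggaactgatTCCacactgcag
Mtmr12: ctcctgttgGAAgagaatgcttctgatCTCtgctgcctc
Mtmr10: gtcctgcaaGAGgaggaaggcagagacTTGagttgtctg

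In Mtmr7, Mtmr6, and Mtmr14 the first capital codon is TGT, for cysteine, and the second is AGA, AGG, or CGG, for arginine. Mtmr9 has GGG and TCC, Mtmr12 has GAA and CTC, and Mtmr10 has GAG and TTG at the aligned places. The remaining 4 genes, Mtmr1, Mtmr2, Mtmr3, and Mtmr4, have TGC at the first place and an arginine codon at the second. Over the whole reading frame, translated and aligned, Mtmr7 and Mtmr6 were 58.6% identical over 611 aligned codons. The other close pairs were Mtmr1 with Mtmr2 at 69% over 642 codons, Mtmr3 with Mtmr4 at 51.5% over 1121, and Mtmr10 with Mtmr12 at 42.8% over 704. Mtmr7 was 37.3% identical to Mtmr9 over 534 codons, and Mtmr14 shared at most 27.1% with any other of the 10 genes.

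Levels are given as FPKM, the fragments of a gene divided by its length in kilobases and by the scaled size of the library, so that genes can be compared per length. B6 libraries held 17651630 to 21562429 reads on genes, C3H libraries 19042306 to 19433751, and WSB libraries 16317439 to 17784118, and each of the 10 genes had between 300 and 2852 reads in a library. C3H replicate 2 stood apart from both other C3H libraries, with chi-square values per gene of 22.6 and 24.1 against 8.11 between replicates 1 and 3, so results that rest on it are given with and without it. B6 replicate 1 also stood apart, though less, with 13.3 and 19.2 against 7.87 between B6 replicates 2 and 3. Defining markers of neurons, oligodendrocytes, astrocytes, microglia, and endothelium, 5 genes each, were present in every strain, apart from Ly6c1, an endothelial marker listed at 0 in WSB. The summed FPKM of 5 neuronal markers was 836 to 907 in the B6 mice, 759 to 858.5 among C3H, and 784 to 884 among WSB. Choroid plexus markers summed to 64.4 and 66.7 FPKM in 2 B6 mice and to 762 in B6 replicate 2, to 92.1, 446.5, and 655 in C3H, and to 535, 467, and 602 in WSB. Striatal markers ranged from 51.7 to 323 FPKM over all mice. In bulk tissue, fewer cells of a type and less RNA per cell cannot be told apart.

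All 10 genes were expressed in cortex in every mouse. Averaged over the 9 mice, Mtmr6 was the highest at 27.7 FPKM, followed by Mtmr9 at 20.2, Mtmr4 at 14.3, Mtmr3 at 13.5, Mtmr7 at 11.6, Mtmr2 at 9.62, Mtmr1 at 7.34, Mtmr14 at 6.81, Mtmr12 at 5.77, and Mtmr10 at 2.64. Mtmr6 exceeded Mtmr9 in 9 of 9 mice, Mtmr9 exceeded Mtmr4 in 9 of 9, and Mtmr10 was the lowest in 9 of 9. Neighbours in the middle of the order were not separated in each mouse, since Mtmr4 exceeded Mtmr3 in 7 of 9 mice, Mtmr3 exceeded Mtmr7 in 6, Mtmr1 exceeded Mtmr14 in 7, and Mtmr14 exceeded Mtmr12 in 8. Mtmr7 was the fourth in B6 and the fifth in C3H and WSB. Mtmr14 was the ninth of 10 in B6, the eighth in WSB, and the seventh in C3H.

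The FPKM of the 10 genes summed to 126.9 ± 5.4 in B6, 118.0 ± 4.3 in C3H, and 114.0 ± 2.7 in WSB (SD, n = 3). The 3 genes without the catalytic pair made up 24.4% ± 0.7 of that sum in B6, 24.6% ± 1.0 in C3H, and 22.8% ± 1.3 in WSB (SD, n = 3). Most of this was Mtmr9, which alone held 17.2%, 17.6%, and 15.9% of the sum in the 3 strains. The shares hold for the 10 genes only and leave out Sbf1, a further family gene without the pair, at 30.7 FPKM in B6.

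**Figure D1:**
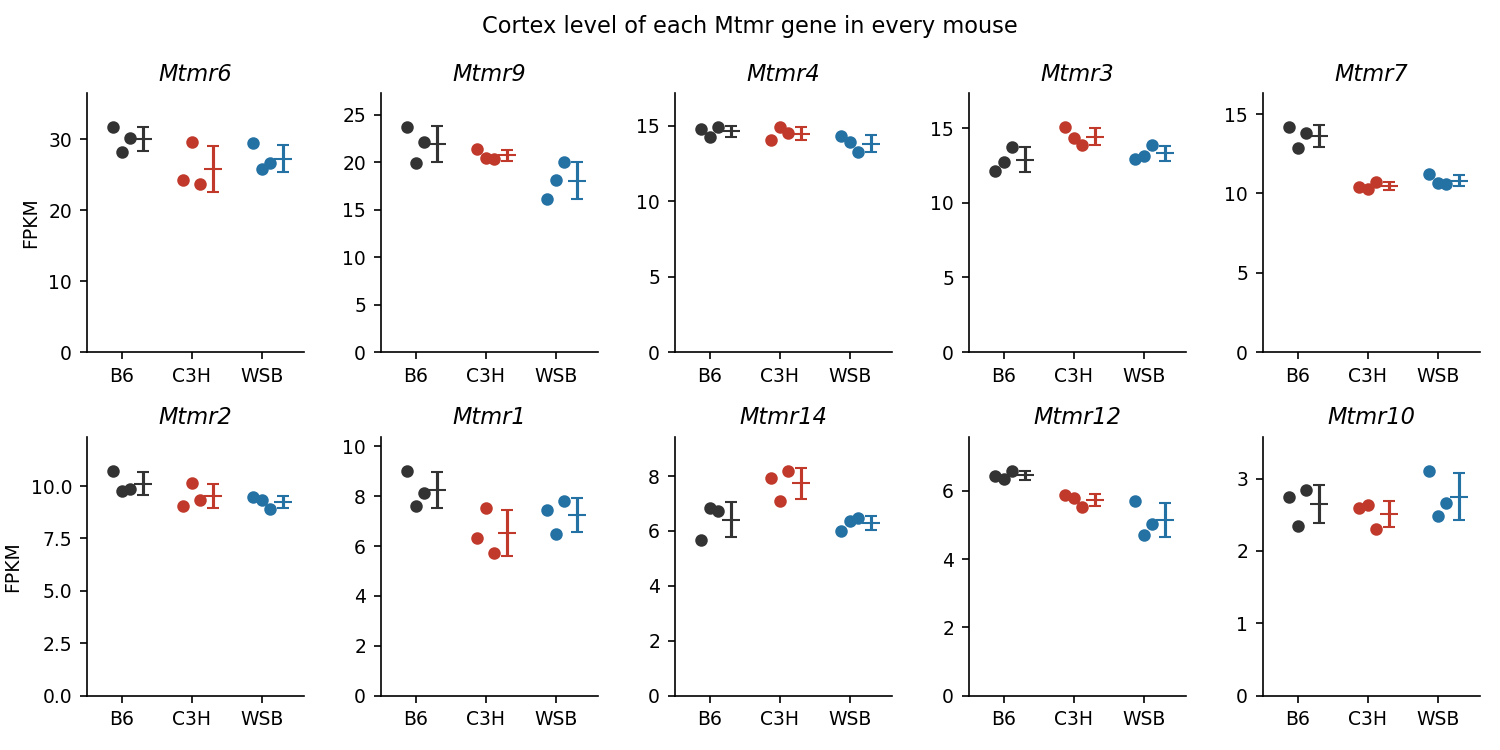
FPKM of the 10 Mtmr genes in each of the 9 mice (points, 3 per strain) with the mean and SD of each strain beside them (bar); panels follow the order of mean level, and each vertical axis starts at 0. In the panels of Mtmr7 and Mtmr12 all B6 points lie above all C3H and WSB points (for Mtmr7, B6 at 12.8 to 14.2 FPKM, C3H at 10.3 to 10.7, and WSB at 10.6 to 11.2), while Mtmr4 overlaps in all 3 strains.

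Among the 10 genes, 1 was differentially expressed between C3H and B6, and the same count was found between WSB and B6; in both cases it was Mtmr7, lower than in B6. Between WSB and C3H none of the 10 passed (limma, adjusted p under 0.05), with Mtmr14 as the 1 gene of 10 at an unadjusted p under 0.05, beside 23.8% of all genes tested, and none passed in any of 18 other fits. The background was similar in size, as 4.64% of the 20602 genes tested were called between C3H and B6, 5.9% of 20746 between WSB and B6, and 5.74% of 20607 between WSB and C3H. Genes called lower made up 2.26%, 3.09%, and 3.13%, and genes called higher 2.38%, 2.81%, and 2.61%. All 10 genes passed the filter on low values in each comparison. The comparisons of C3H and WSB with B6 share the B6 mice, so the 2 results for Mtmr7 are not independent of each other. The study named Mtmr7 as a candidate from these same libraries, and its calls here are therefore no independent evidence of its direction.

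Mtmr7 (ENSMUSG00000039431), a phosphatase known for its high expression in brain, was measured at 14.2, 12.8, and 13.8 FPKM in the B6 mice, at 10.4, 10.3, and 10.7 in the C3H mice, and at 11.2, 10.6, and 10.6 in the WSB mice. The lowest B6 mouse was above the highest mouse of either other strain, and C3H and WSB overlapped. The log2 fold change of Mtmr7 was -0.37 in C3H relative to B6 (SE 0.08, 95% confidence interval -0.55 to -0.20, adjusted p = 0.0371, limma), or 0.772 times the B6 level. In WSB the log2 fold change from B6 was -0.33 (SE 0.07, 95% confidence interval -0.50 to -0.16, adjusted p = 0.0433, limma), or 0.797 times the B6 level. Between WSB and C3H the log2 difference was 0.05 with a 95% confidence interval from -0.12 to 0.21 (adjusted p = 0.738, limma).

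Both calls of Mtmr7 lay near the threshold. In the comparison of C3H with B6, Mtmr7 passed in 10 of 12 alternative settings and in 1 of 6 fits that left out 1 mouse (C3H replicate 2), with adjusted p from 0.0408 to 0.132 in the latter (limma). In that of WSB with B6 it passed in 9 of 12 alternative settings and in none of the 6 fits without 1 mouse, with adjusted p from 0.0850 to 0.135 (limma). The size of the difference moved less, as the log2 fold change stayed between -0.41 and -0.34 in C3H and between -0.37 and -0.30 in WSB whichever mouse was left out. Without B6 replicate 1 it was -0.34 in C3H and -0.30 in WSB (adjusted p = 0.112 and 0.108, limma). Of the 12 settings, median-ratio rescaling nearly repeated the reported fit and was no separate check, since the deposited values were already scaled that way.

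**Figure D2:**
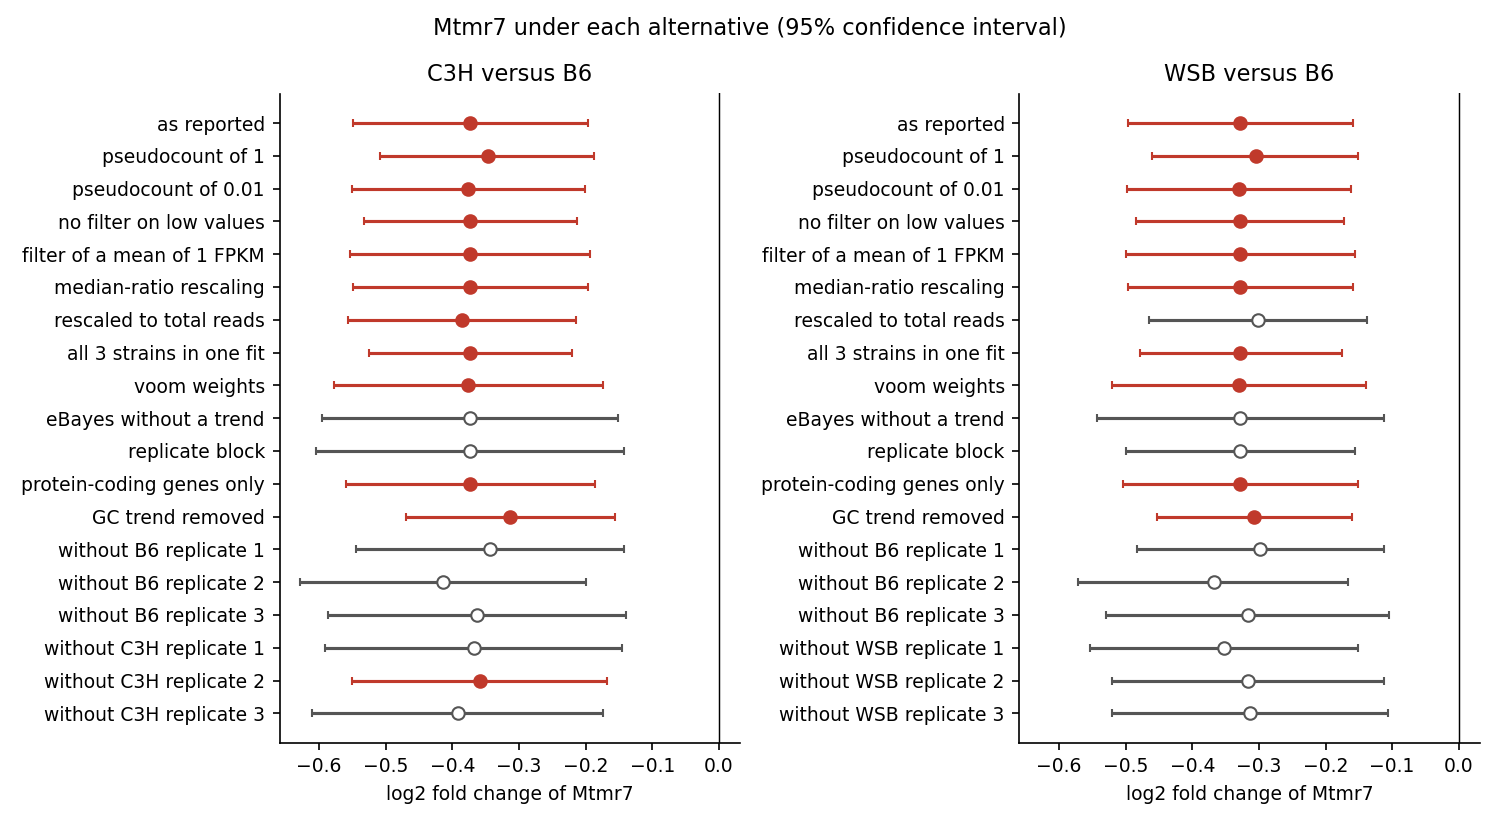
Log2 fold change of Mtmr7 with its 95% confidence interval (horizontal axis) under each setting and without each mouse (vertical axis), for C3H versus B6 on the left and WSB versus B6 on the right; filled red points have an adjusted p under 0.05 and open grey points do not. Every interval lies below 0, and the filled points number 12 on the left and 10 on the right, the reported fit included.

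Mtmr7 was also a smaller part of its own family in C3H and WSB than in B6, taken as the summed FPKM of the 10 genes, Mtmr7 included. Its part of the summed FPKM of the 10 genes lay between 10.6% and 10.8% in the 3 B6 mice, between 8.37% and 9.40% for C3H, and between 9.20% and 9.67% for WSB, so that neither other strain overlapped B6. The ratio of Mtmr7 to its closest relative Mtmr6 was 0.453 ± 0.005 in B6, 0.409 ± 0.056 in C3H, and 0.397 ± 0.017 in WSB (SD, n = 3). In the C3H mice this ratio was 0.427, 0.347, and 0.454, of which the last reached the B6 range of 0.447 to 0.457, and in the WSB mice it was 0.380, 0.413, and 0.398, all below that range. These shares and ratios are descriptions and were not tested. They do not set Mtmr7 apart from every other member, since Mtmr1 in C3H (log2 fold change -0.34) and Mtmr12 in WSB (-0.33) changed about as much.

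Mtmr7 spans chr8:40551095-40634797 on the minus strand of GRCm38. Its last 40 bases, chr8:40551095-40551134, are exonic in both Mtmr7 and Vps37a, an ESCRT-I subunit encoded on the opposite strand, and are 40 of the 4454 exon bases of Mtmr7. Whether the counting used strand is not stated in the sources used here. Vps37a had 9.87, 9.13, and 7.78 FPKM in the B6 mice, 5.96, 7.55, and 6.47 in C3H, and 10.3, 8.52, and 8.22 in WSB. It was below B6 in all C3H mice without passing (log2 fold change -0.42, SE 0.13, adjusted p = 0.111, and without C3H replicate 2 -0.51 and 0.0483, limma), and in WSB it overlapped B6 (log2 fold change 0.01, adjusted p = 0.969, limma). The study, with DESeq2 on these same libraries, did list Vps37a as lower in C3H than in B6. The part of the shared bases in the level of Mtmr7 was not tested. Nor was that of sequence variants of C3H and WSB relative to the B6-derived reference genome, which can affect how their reads align.

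Among the remaining active phosphatases, Mtmr6 and Mtmr1 had the lowest fold changes in C3H after Mtmr7, and both depended on C3H replicate 2. Mtmr6, which acts on PI3P and binds Mtmr9, was at 31.7, 28.2, and 30.2 FPKM in B6, at 24.3, 29.6, and 23.7 in C3H, and at 29.5, 25.8, and 26.7 in WSB. C3H replicate 2 lay within the B6 range and both other C3H mice lay below it. With all mice the log2 fold change in C3H was -0.22 (SE 0.10, adjusted p = 0.235, limma), and without C3H replicate 2 it was -0.32 (adjusted p = 0.0483, limma). Mtmr1, a close relative of Mtmr2, was at 9.03, 7.61, and 8.13 FPKM in B6, at 6.32, 7.51, and 5.71 in C3H, and at 7.45, 6.50, and 7.83 in WSB. All C3H mice were below all B6 mice, though replicate 2 only by a narrow margin. Its log2 fold change in C3H was -0.34 (SE 0.12, adjusted p = 0.156, limma), and -0.45 without C3H replicate 2 (adjusted p = 0.0483, limma). Leaving out that library raised the share of all genes called between C3H and B6 to 11.2%, so the 3 calls among these 10 genes that it gave, Mtmr1, Mtmr6, and Mtmr7, stand beside a larger background. Between WSB and C3H that share rose to 9.71%, and none of the 10 genes passed (limma).

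Mtmr14, a phosphatase first described in muscle, was the member that stood highest in C3H. Its levels were 5.67, 6.85, and 6.71 FPKM in B6, 7.92, 7.09, and 8.19 in C3H, and 6.0, 6.38, and 6.46 in WSB. The C3H mice lay above all mice of both other strains, and B6 and WSB overlapped. The log2 fold change was 0.27 in C3H relative to B6 (SE 0.11, adjusted p = 0.186, limma) and -0.29 in WSB relative to C3H (SE 0.09, adjusted p = 0.113, limma), and neither passed in any of 18 other fits.

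Mtmr3 and Mtmr4 are the members that carry a FYVE domain, a fold known for binding PI3P. Mtmr3 was at 12.1, 12.8, and 13.8 FPKM in B6, at 15.1, 14.3, and 13.9 in C3H, and at 12.9, 13.1, and 13.9 in WSB. All C3H mice exceeded all B6 mice and all WSB mice by a small margin, with a log2 fold change of 0.16 from B6 to C3H (adjusted p = 0.255, limma) and -0.12 from C3H to WSB (adjusted p = 0.376, limma). Mtmr4 spanned only 13.2 to 14.9 FPKM over the 9 mice, and every pair of strains overlapped. For Mtmr4 the 95% confidence intervals of the log2 differences ran from -0.18 to 0.15 in C3H and from -0.24 to 0.07 in WSB relative to B6.

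Mtmr2, the phosphatase of the neuropathy gene pair, was at 10.7, 9.77, and 9.85 FPKM in B6, at 9.03, 10.1, and 9.35 in C3H, and at 9.46, 9.36, and 8.90 in WSB. The WSB mice lay below all B6 mice, with a log2 fold change of -0.13 (SE 0.08, adjusted p = 0.403, limma). C3H replicate 2, at 10.1 FPKM, lay within the B6 range, and C3H replicates 1 and 3 lay below it.

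The inactive members are the partners of these enzymes. Mtmr9, which binds Mtmr6 and Mtmr7 and raises their activity, was at 23.7, 19.9, and 22.1 FPKM in B6, at 21.4, 20.4, and 20.4 in C3H, and at 16.1, 18.1, and 20.05 in WSB. WSB was below all C3H mice and overlapped B6 in 1 mouse, WSB replicate 3. The log2 fold change was -0.28 from B6 to WSB (SE 0.10, adjusted p = 0.191, limma) and -0.20 from C3H to WSB (SE 0.09, adjusted p = 0.234, limma). The combined level of Mtmr6 and Mtmr7 was 1.997 ± 0.065 times that of Mtmr9 in B6, 1.75 ± 0.18 in C3H, and 2.13 ± 0.35 in WSB (SD, n = 3). This ratio overlapped between B6 and WSB. Between B6 and C3H it overlapped only through C3H replicate 2, at 1.954 against 1.936 to 2.064 in B6, and C3H replicates 1 and 3 were at 1.622 and 1.687.

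Mtmr12, a partner of Mtm1 and Mtmr2, was the member nearest to a call after Mtmr7 in WSB. Its levels were 6.43, 6.34, and 6.58 FPKM in B6, 5.88, 5.78, and 5.53 in C3H, and 5.69, 4.69, and 5.04 in WSB. No C3H or WSB mouse reached the lowest B6 mouse. The log2 fold change was -0.33 in WSB relative to B6 (SE 0.10, 95% confidence interval -0.55 to -0.10, adjusted p = 0.106, limma), with adjusted p from 0.0597 to 0.243 over 18 other fits, and -0.17 in C3H relative to B6 (adjusted p = 0.246, limma). In size the WSB difference of Mtmr12 equalled that of Mtmr7 to 2 decimals on the log2 scale, and Mtmr7 had the smaller standard error.

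Mtmr10, the lowest member, was at 2.75, 2.35, and 2.85 FPKM in B6, at 2.59, 2.64, and 2.30 in C3H, and at 3.11, 2.48, and 2.66 in WSB, and the 3 strains overlapped. It shares 384 exon bases with Gm20457, an antisense gene of 19 to 46 reads in a library against 338 to 478 for Mtmr10, and without strand the reads of both genes over these bases cannot be told apart. Processed pseudogenes resemble Mtmr2 (Gm5997, 1854 aligned bases at 92.9% identity) and Mtmr3 (Gm5043, 821 bases at 96.5%). They held at most 0 and 2 reads in a library, and reads that matched both copies could not be followed in these values.

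**Figure D3:**
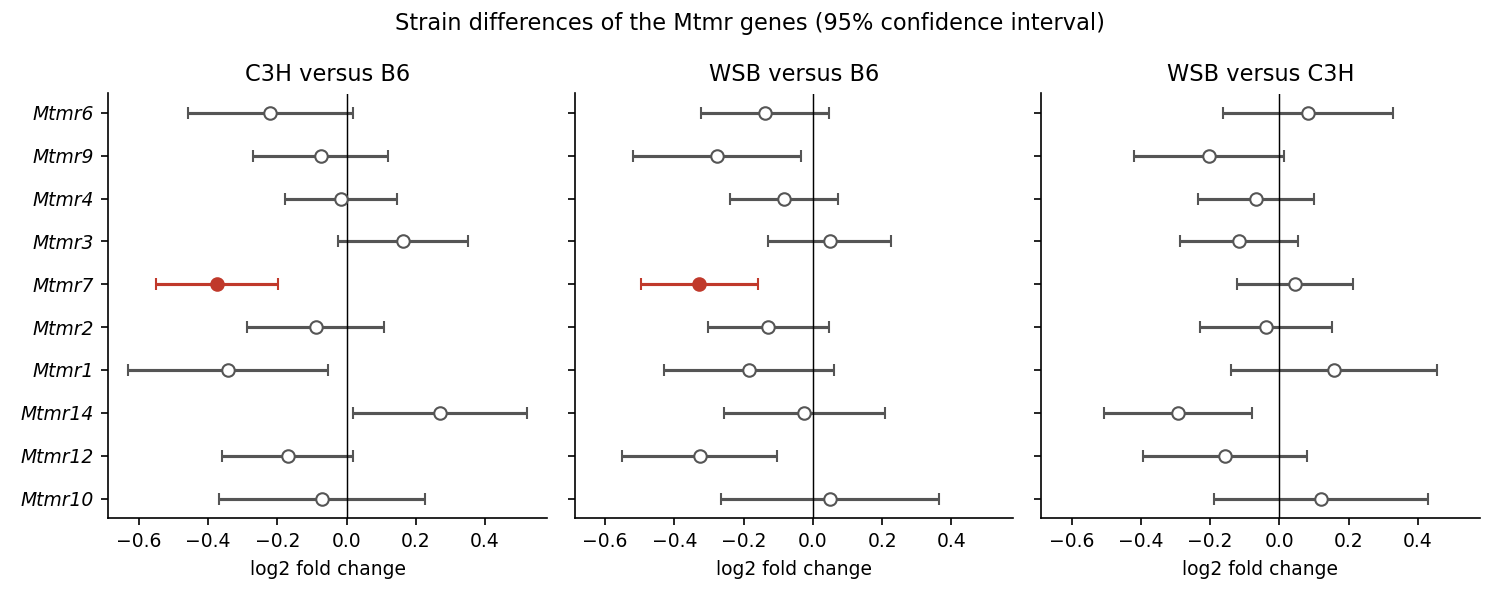
Log2 fold change (horizontal axis, point) and its 95% confidence interval (bar) of each Mtmr gene in C3H versus B6, WSB versus B6, and WSB versus C3H, on 1 common scale with the genes in the order of mean level; filled red points passed at an adjusted p under 0.05. Mtmr7 is filled in both comparisons with B6, at -0.37 and -0.33, and no gene is filled between WSB and C3H.

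For the 10 genes as a group, the median log2 fold change was -0.08 in C3H and -0.13 in WSB relative to B6, and -0.05 in WSB relative to C3H, where the medians over all genes tested were 0.00, 0.00, and 0.01. The median size of change, regardless of sign, was 0.167, 0.133, and 0.118 for the 10 genes against 0.251, 0.206, and 0.252 for all genes tested, which include genes far lower in level than the 10. The summed FPKM of the 10 genes was lower in every WSB mouse, at 110.9 to 115.7, than in every B6 mouse, at 120.9 to 131.1. In C3H this sum overlapped B6 through replicate 2 alone, at 122.7, and C3H replicates 1 and 3, at 117 and 114.3, lay below every B6 mouse. Of the 10, 8 were below 0 in C3H relative to B6 (6 with the GC trend removed), 8 in WSB relative to B6 (7 when libraries were rescaled to total reads), and 6 in WSB relative to C3H (7 with the GC trend removed). The ranges of the mice did not overlap between C3H and B6 for 5 genes (Mtmr3 and Mtmr14 higher, Mtmr1, Mtmr7, and Mtmr12 lower), beside 28.9% of all genes tested. Between WSB and B6 this held for 3 genes, Mtmr2, Mtmr7, and Mtmr12, all lower in WSB, beside 26% of all genes in either direction and 13.1% lower. Between WSB and C3H it held for Mtmr3, Mtmr9, and Mtmr14, all lower in WSB, beside 28.6% in either direction and 14.4% lower.

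The members' fold changes in C3H were correlated with their base composition, and whether composition was a cause was not tested. Across all genes with at least 1 FPKM on average, the fold change between C3H and B6 rose with the GC content of the longest transcript (Spearman's rho 0.485 over 12940 genes), and the correlation was 0.114 between WSB and B6 and -0.397 between WSB and C3H. Mtmr7, the member of the lowest fold change, was in the middle of the GC range. For the 10 Mtmr genes Spearman's rho was 0.745, 0.236, and -0.855 in the 3 comparisons, and the Pearson correlation was 0.766, 0.192, and -0.859. With each library's GC trend removed, their rho was 0.418, 0.236, and -0.467. These values are given as a description over 10 genes measured in the same libraries. Mtmr6, at 43.3% GC, and Mtmr1, at 43.9%, were the members lowest in GC, and Mtmr14, at 53.7%, was the highest. After each library's GC trend was removed, the log2 fold change from B6 to C3H was -0.03 for Mtmr6, -0.18 for Mtmr1, and 0.17 for Mtmr14. Mtmr9, at 52.2% GC, had a fold change below 0 and moved away from 0, from -0.07 to -0.14. Mtmr7, at 47.5% GC, then had a log2 fold change of -0.31 in C3H (adjusted p = 0.041, limma) and of -0.31 in WSB (adjusted p = 0.0307, limma).

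**Figure D4:**
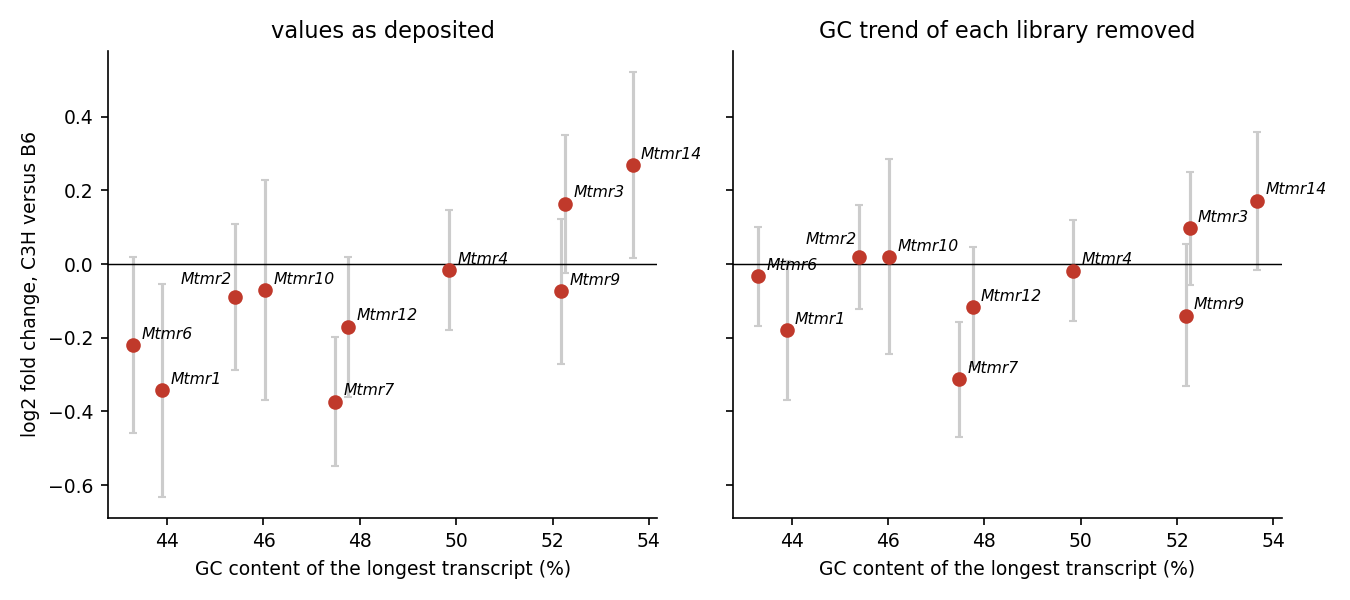
Log2 fold change from B6 to C3H with its 95% confidence interval (vertical axis) against the GC content of the longest transcript in percent (horizontal axis) for the 10 Mtmr genes, with the deposited values on the left and after removal of each library's GC trend on the right. Mtmr6 and Mtmr1 at the left end and Mtmr14 at the right end move toward 0, Mtmr9 moves away from 0, and Mtmr7 moves from -0.37 to -0.31.

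Cell type markers differed between strains beside these results. The summed FPKM of 5 oligodendrocyte markers lay between 679 and 864 in the B6 mice, between 645 and 859 for C3H, and between 366 and 527 for WSB. That of 5 microglial markers lay between 113 and 119, between 117 and 141, and between 96.5 and 97.8 for B6, C3H, and WSB. Astrocyte markers summed to between 176 and 215 FPKM in the B6 mice, which overlapped both other strains. Every WSB mouse, at 178.5 to 189.7, lay below every C3H mouse, at 191.8 to 220.4. Blood genes, mostly haemoglobins, summed to at most 254 FPKM in the B6 mice and 329 in WSB, and to at least 632 for C3H. Endothelial markers, of which 1 of 5 was listed at 0 in WSB, summed to at least 36.0 FPKM in the B6 mice and 32.3 for C3H, and to at most 28.6 for WSB. Neuronal sums of 784.9 and 759.4 in 2 of 3 C3H mice, and of 783.7 in WSB replicate 2, lay below every B6 mouse. Choroid plexus sums in all 3 WSB mice lay above those of 2 of 3 B6 mice. The part of these shifts in the differences of Mtmr7, Mtmr9, and Mtmr12 was not tested.

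The 4 further genes of the family did not pass in any comparison. Sbf1 and Sbf2, inactive relatives that bind Mtmr2, were at 30.7 ± 2.7 and 3.004 ± 0.351 FPKM in B6, 33.2 ± 2.2 and 2.47 ± 0.26 in C3H, and 29.4 ± 0.7 and 2.33 ± 0.05 in WSB (SD, n = 3). Sbf2 was below all B6 mice in WSB (log2 fold change -0.35, SE 0.12, adjusted p = 0.164, limma). Mtm1, the myotubularin of X-linked myotubular myopathy, was at 0.36 ± 0.09, 0.35 ± 0.07, and 0.32 ± 0.03 FPKM, and the inactive Mtmr11 at 1.04 ± 0.13, 1.10 ± 0.23, and 1.11 ± 0.21 in B6, C3H, and WSB (SD, n = 3). Sbf1 was thus in the range of Mtmr6, the highest of the 10, and Mtm1 was lower than Mtmr10, the lowest.

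The lipids on which myotubularins act are made, turned over, and read by other proteins, for which groups of 10, 3, 10, and 16 genes were listed. Of the kinases and subunits that make PI3P, 0 of 9 tested genes passed in any comparison (limma, with 0, 1, and 2 at an unadjusted p under 0.05 in C3H versus B6, WSB versus B6, and WSB versus C3H, where 24.1%, 20.4%, and 23.8% of all genes tested were). Becn1, the autophagy subunit of that kinase and the highest of the group, was at 12.4 ± 0.4, 13.6 ± 0.5, and 11.6 ± 0.4 FPKM in B6, C3H, and WSB (SD, n = 3). Pik3c2g was not tested, with at most 0.0190 FPKM in a mouse. Of the 3 genes for PI(3,5)P2 synthesis and turnover, 0 passed (2, 1, and 1 at an unadjusted p under 0.05), and Fig4, a phosphatase of that lipid, was at 11.0 ± 0.5, 11.3 ± 0.7, and 10.1 ± 0.5 FPKM. Of 10 other phosphoinositide phosphatases, 0 passed (3, 1, and 4 at an unadjusted p under 0.05), and Synj1, which acts at synaptic vesicles, was at 40.5 ± 2.7, 36.3 ± 1.6, and 37.2 ± 1.5 FPKM.

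Among 15 tested genes whose proteins bind or respond to PI3P or PI(3,5)P2, 1 passed between C3H and B6, 2 between WSB and B6, and 1 between WSB and C3H. The shares of all genes tested that passed were 4.64%, 5.9%, and 5.74% in these comparisons. Wdfy1, a FYVE protein of early endosomes, was at 2.51, 2.62, and 2.17 FPKM in B6, at 6.44, 6.98, and 5.87 in C3H, and at 7.15, 6.74, and 7.16 in WSB. Its B6 mice lay far below all others, and its log2 fold change was 1.37 in C3H (SE 0.12, adjusted p = 0.000777, limma) and 1.49 in WSB (SE 0.10, adjusted p = 0.000237, limma). It passed in all 18 other fits of both comparisons. C3H and WSB overlapped only through C3H replicate 2 (adjusted p = 0.459, and 0.227 without that library, limma). Tpcn1, an endolysosomal channel that PI(3,5)P2 opens, was at 6.28, 5.70, and 6.44 FPKM in B6, at 6.02, 5.70, and 6.63 in C3H, and at 3.92, 4.24, and 4.72 in WSB. It was lower in WSB than in B6 (log2 fold change -0.51, SE 0.10, adjusted p = 0.0323, limma) and than in C3H (-0.50, SE 0.11, adjusted p = 0.0432, limma), and these calls each passed in 1 of 6 fits without 1 mouse, without WSB replicate 3 in the first and without C3H replicate 2 in the second. Among the 12 other settings they passed in 10 and 8. Snx3, a PI3P-binding sorting nexin and the highest of the group, was at 101.0 ± 4.9, 103.5 ± 9.4, and 104.9 ± 4.1 FPKM (SD, n = 3). Hgs could not be assessed, since its symbol belongs to a pair of overlapping entries and the one used had at most 0.0519 FPKM.

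**Figure D5:**
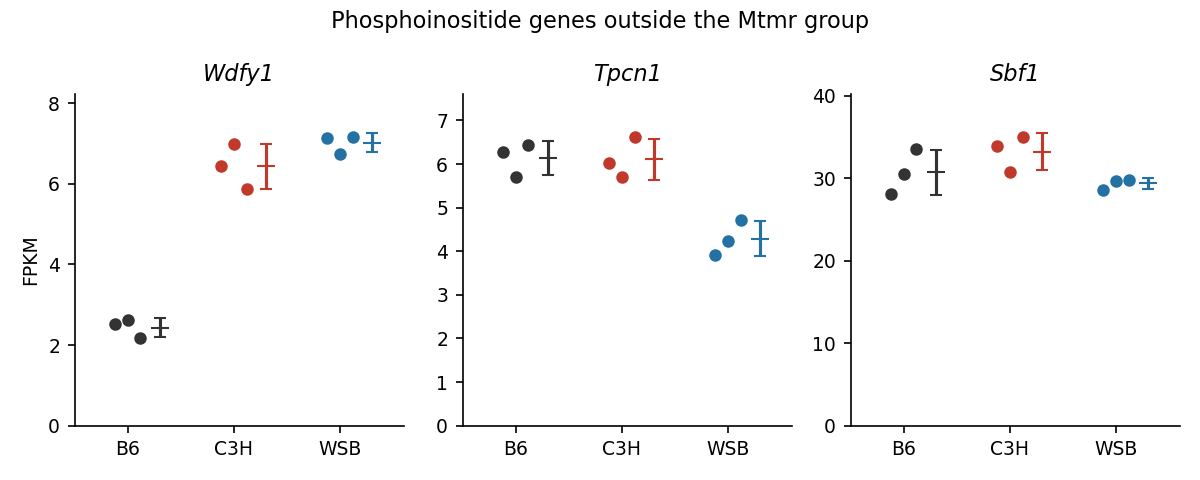
FPKM of Wdfy1, Tpcn1, and Sbf1 in each of the 9 mice (points) with the mean and SD of each strain (bar), on axes that start at 0. Wdfy1 is at 2.17 to 2.62 in B6 and at 5.87 or more in both other strains, and Tpcn1 is lower in WSB than in B6 and C3H. Sbf1 overlaps between B6 and each other strain, in C3H through replicate 2 alone.

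The genes whose log2 levels followed Mtmr7 most closely over the 9 mice, among 13009 genes of at least 1 FPKM on average, were Aqr (r = 0.986), Akr1e1 (r = 0.979), Clgn (r = 0.977), H2-D1 (r = 0.973), and Gm25772 (r = 0.971). These Pearson correlations describe 9 mice of 3 strains that share their libraries with Mtmr7. In each of the 5 genes the B6 mean was the highest, which follows from ranking genes on the pattern of Mtmr7. Aqr, a helicase of the spliceosome, averaged 3.23 FPKM in B6, 2.07 in C3H, and 2.27 in WSB. Clgn, a chaperone gene that like Mtmr7 is on Chr 8, averaged 3.19, 2.36, and 2.35. H2-D1, a histocompatibility gene, averaged 13.8, 0.988, and 0.944. Gm25772 was listed at 0 in every C3H and WSB mouse, so it passed the filter of 1 FPKM through B6 alone. The part of strain sequence variants, relative to the B6-derived reference genome, in these levels was not tested. None of the other 9 Mtmr genes was among these 5, which says little about the family, since only 5 places among 13009 genes were open.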

How the data were processed

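RNA of brain cortex from 9 mice was sequenced with paired-end reads. The authors used Cutadapt for adapter trimming, HTSeq for counting and DESeq2 for testing, and the table they deposited holds 1 FPKM value for each gene of each mouse. The submitters' processing notes also name STAR. Versions and genome build are not given in the sources used here, and gene coordinates were those of GRCm38 for 53499 of 54532 genes when set against GENCODE M21. All 9 value columns were used. Multiplied by gene length, 100% of values were whole multiples of 1 step per library (tolerance 0.001), which gave the reads per gene used for depth, for comparing libraries, for rescaling to total reads, and for voom weights.

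Pairs of strains, each of 3 mice assigned by the strain label, were compared with limma (version 3.58.1, R version 4.3.3), by lmFit and eBayes with trend and two-sided. The response was log2(FPKM + 0.1). Genes that averaged 0.1 FPKM or more over the 6 mice were kept, and p-values were adjusted over all of them (Benjamini-Hochberg, threshold 0.05). Fold changes are on that log2 scale, which understates the change of low genes. The 3 mice were separate animals, so p-values rest on the spread between mice. Alternatives were a pseudocount of 1 or of 0.01, all genes kept or those averaging 1 FPKM, rescaling by median ratios or by total reads, 1 fit of all 3 strains, voom weights, eBayes without a trend, a replicate block, only protein-coding genes, removal of each library's GC trend (lowess, span 0.3), and leaving out each mouse. The deposited values already carried a median-ratio scaling, so rescaling by median ratios nearly repeated the reported fits. The fits were tested on simulated data. Similar transcripts were searched with blastn 2.17.0, and figures were drawn with Python 3.11.15 and matplotlib 3.10.9.

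The 10 genes and the gene lists were chosen with earlier results of these data known. Named were all 10 genes, the 4 further family genes, the genes of each list that passed or had the highest level, the gene that overlaps Mtmr7, and the 5 genes most correlated with Mtmr7.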

Additional observations from a re-analysis of the deposited data

Results flagged for a closer look

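Tpcn1, the PI(3,5)P2-gated channel, differed between strains in its change from B6. Relative to B6 its log2 fold change was -0.51 in WSB and -0.01 in C3H, and the difference between both, fitted as WSB versus C3H, was -0.503 (SE 0.11, adjusted p = 0.0432, limma), with all 3 WSB mice below all 3 C3H mice. Among 12 other settings it passed in 8, and the adjusted p was 0.0586 with no filter on low values, 0.0573 with total reads, 0.0859 with eBayes without a trend, and 0.0924 with a replicate block (limma). Without 1 mouse the difference passed in 1 of 6 fits, with adjusted p from 0.0393 to 0.156 (limma).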

How the results depend on the processing

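Of 753 values for named genes under alternatives other than leaving out a mouse, 732 kept their direction and side of the threshold (limma). The 753 include the values of median-ratio rescaling, which nearly repeated the reported fits. Most belong to genes not called in the reported fits, for which keeping their side says little. The values that lost a call were all of Mtmr7 or Tpcn1. Of 378 values without 1 mouse, 319 kept direction and side, and 34 changed direction (limma). The called Mtmr genes fell from 1 to 0 with eBayes without a trend and with a replicate block in both comparisons with B6, and to 0 with total reads in WSB versus B6; adjusted p of Mtmr7 was then 0.106 and 0.136 in C3H, and 0.118, 0.0787, and 0.0512 in WSB. The replicate block gave 480, 754, and 531 calls over all genes in C3H versus B6, WSB versus B6, and WSB versus C3H, where 956, 1224, and 1182 were reported, and voom weights gave 1488 in the first. Same-numbered mice did not deviate together (correlations from -0.157 to 0.037, with 0, 1, and 1 of 6 mice correlated best with their own number in the 3 comparisons), so no pairing by number was seen. With 3 mice per strain, such correlations cannot exclude a processing step shared by number, and the labels name none. Listed genes outside the 10 numbered 2 in C3H versus B6 with voom weights, and 1 in WSB versus B6 without a trend and with the block. In WSB versus C3H they numbered 0 with no filter, total reads, no trend, or the block, 2 with voom weights or protein-coding genes, and 3 in the fit of all strains or with the GC trend removed. The cause of these changes was not tested.

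Signs that turned belonged to values that never passed. With the GC trend removed, C3H versus B6 gave 0.0194 for Mtmr2, 0.0193 for Mtmr10, 0.31 for Mtm1, -0.0441 for Sbf1, and -0.05 for Snx3, and WSB versus C3H gave -0.0756 for Mtmr6 and -0.0172 for Synj1. With total reads, Mtmr14 was at 0.00144 in WSB versus B6. Without 1 mouse, calls over all genes ranged from 498 to 2301, 651 to 825, and 475 to 2002 in the 3 comparisons, Mtmr calls from 0 to 3 and 0 to 0 in those with B6, and listed genes from 1 to 5, 1 to 2, and 0 to 4. The highest counts against C3H came without C3H replicate 2. Further log2 values that changed sign without a mouse ranged, in C3H versus B6, from -0.0366 to 0.00643 for Mtmr4, from -0.175 to 0.102 for Mtm1, from -0.0921 to 0.153 for Mtmr11, from -0.0648 to 0.0418 for Tpcn1, from -0.00845 to 0.0818 for Fig4, and from -0.022 to 0.107 for Snx3. In WSB versus B6 they ranged from -0.0395 to 0.118 for Mtmr10, from -0.11 to 0.0252 for Mtmr14, from -0.244 to 0.0324 for Mtm1, from -0.0586 to 0.167 for Mtmr11, from -0.123 to 0.00378 for Sbf1, and from -0.0847 to 0.088 for Vps37a. In WSB versus C3H they ranged from -0.0754 to 0.00764 for Mtmr2, from -0.154 to 0.0564 for Mtm1, from -0.121 to 0.17 for Mtmr11, from -0.119 to 0.00485 for Sbf2, from -0.00236 to 0.0616 for Synj1, and from -0.053 to 0.0761 for Snx3.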
